A study of Mus musculus with 4 samples.

Results

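Fibro-adipogenic progenitors (FAPs) are the resident mesenchymal cells of skeletal muscle, and together with fibroblasts they make most of its connective tissue. The 10 genes described here mark these cells or are products by which they are recognised: Pdgfra, Pdgfrb, Ly6a, Cd34, Thy1, Dcn, Lum, Fn1, Postn and Tcf7l2. Members were taken by gene symbol from the count table, collagens were left out, and all 10 symbols were found among 13825 genes. All 10 also passed the filter on low counts (an average of 10 or more per library), as did 13084 genes in all.

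The libraries came from tibialis anterior (TA) muscle of adult male mice, taken 14 days after surgery on the sciatic nerve of the left leg, and the study asked how FGF21, a growth factor secreted by muscle, takes part in the atrophy that follows loss of the nerve. The 4 groups crossed genotype, WT or Fgf21KO (KO below), with surgery, sham or denervated, with denervated and sham legs from the same animals. WT mice were C57BL/6J by the study's methods, and Fgf21KO mice lack the gene in the whole body, on a strain background that is not given in the sources used here. The labels describe an innervated right leg as the sham side and a removed nerve piece of 2 mm, while the methods describe a longer segment and a sham operation on the opposite leg. RNA from 4 muscles was pooled in each group, so each group is 1 library without replicates, and the spread between mice cannot be seen. Total counts over all 13825 genes of the count table were 25249879 in WT sham, 29150147 in WT denervated, 34141303 in KO sham and 27740920 in KO denervated muscle. Fgf21 itself was not analysed here, and the deleted gene could therefore not serve as a check of the genotype labels. The surgery labels were checked on Ncam1, an adhesion molecule known to accumulate on denervated fibres, which had 234 counts in WT sham, 3319 in WT denervated, 235 in KO sham and 3298 in KO denervated muscle.

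In adult muscle, FAPs lie between the fibres and carry the PDGF receptor alpha on their surface, by which they are commonly sorted. They do not fuse into fibres, but they lay down matrix, support satellite cells and the nerve, and can turn into adipocytes or matrix-producing fibroblasts when muscle is injured or loses its nerve. The study asked whether FAPs respond to denervation and whether they are a source of TGFB1. Several of the markers are shared with other cells: Pdgfrb is also a receptor of pericytes and smooth muscle, Cd34 and Ly6a are also made by endothelial cells, and Thy1 by neurons and some lymphocytes. In whole muscle, the number of cells of a type, their RNA per cell and the RNA of other cells cannot be told apart, so no value below counts cells.

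Expression is given as CPM, a gene's count relative to its library's total after scaling by the trimmed mean of M-values (TMM), and as log2 ratios of CPM between libraries. Below, a ratio in WT or in KO muscle is denervated over sham, and a ratio in sham or in denervated muscle is KO over WT. The effect of denervation over both genotypes was tested in an additive model of genotype and surgery by the quasi-likelihood test of edgeR, with Benjamini-Hochberg adjustment over all 13084 genes. A gene was called when its adjusted p was below 0.05 and its log2 ratio was at least 1 in size, which is 2-fold. In that model the WT and KO libraries stand in for replicates, and only 1 residual degree of freedom is left. Single log2 ratios between libraries carry no test, and their 95% intervals are exact binomial (Clopper-Pearson) intervals of counting error only.

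Most of the markers were lower in denervated muscle, by less than 2-fold. Of the 10, 1 was called lower (Pdgfrb), against 6.15% of all genes tested, and 0 were called higher, against 6.76% of all genes. At an adjusted p below 0.05 and any fold, 6 of 10 were lower (Pdgfrb, Thy1, Cd34, Ly6a, Fn1 and Dcn), against 26.8% of all genes, and 0 were higher, against 26.5%. By edgeR, 7 members were lower and 0 higher at an unadjusted p below 0.05. DESeq2's Wald test and limma gave 0 higher members at an adjusted p below 0.05. The Wald test left 5 members lower at any fold, without Dcn, and limma gave 7. No share of all genes is given beside these counts, so they do not say whether the members differ from other genes. The median log2 ratio of the 10 was -0.37, and that of all genes 0.01. Total-count scaling, which shifts all genes alike, gave -0.05 for the members and 0.33 for all genes. With that scaling 4 members were lower at an adjusted p below 0.05, without Dcn and Fn1, Tcf7l2 was higher, and Pdgfrb was no longer called. The share of all genes at any fold is not given for that scaling either. Of all genes, it called 327 lower and 1703 higher, against 805 and 884 with TMM. The 15 mitochondrially encoded genes held 27.3% of counts in WT sham, 19.6% in WT denervated, 30.8% in KO sham and 20.8% in KO denervated muscle, and their part in the difference between the scalings was not tested.

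**Figure D1:**
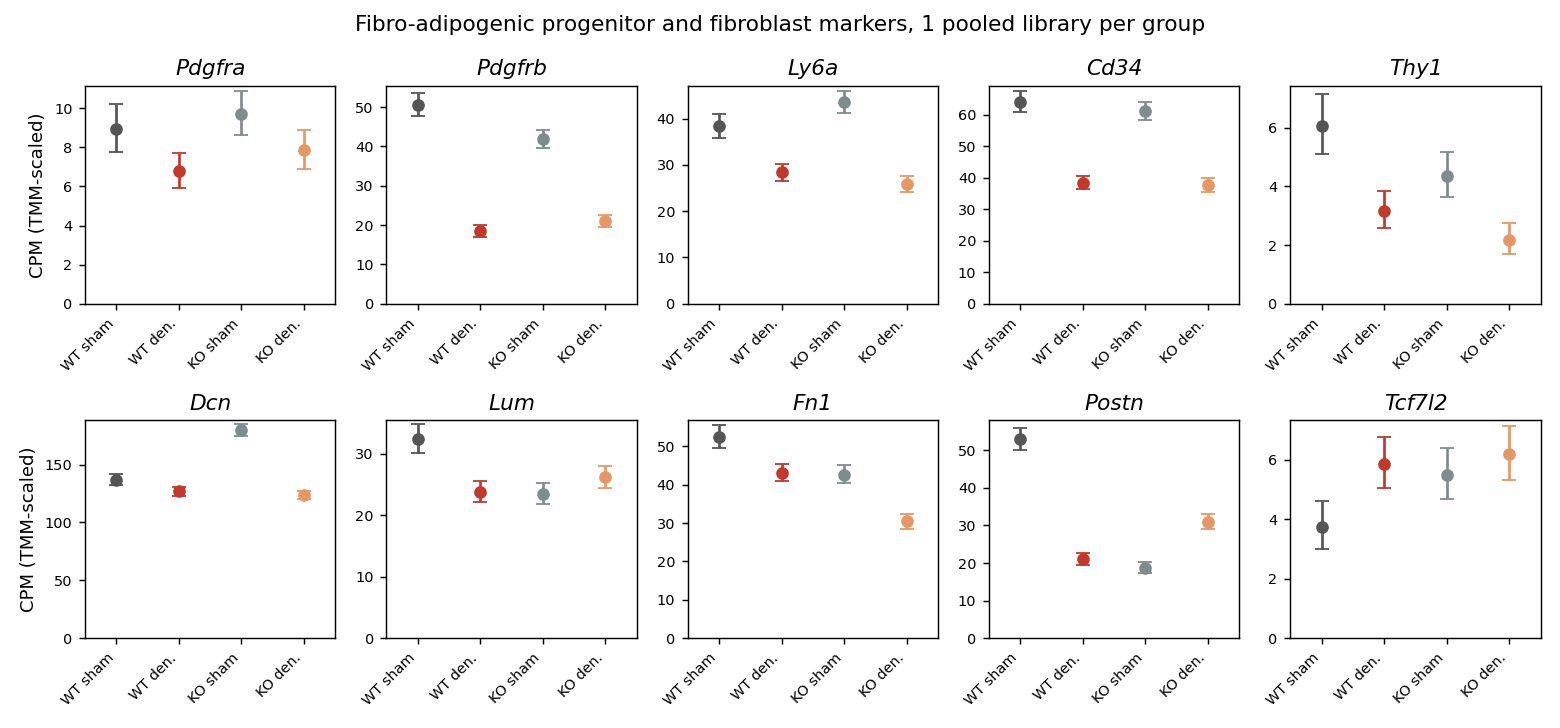
CPM (TMM-scaled, linear axis from 0) of each of the 10 markers in the 4 libraries, with 95% Poisson intervals of the count as bars; WT and KO are the genotypes and den. means denervated. Pdgfrb, Cd34, Ly6a, Thy1 and Pdgfra are lower in the denervated library of each genotype, while Postn is highest in WT sham muscle (52.9 CPM) and lowest in KO sham muscle (18.8 CPM).

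Of the surface markers, the PDGF receptors are given first. Pdgfrb, a receptor tyrosine kinase for the PDGF-B and PDGF-D chains, had 1177 counts (50.6 CPM) in WT sham, 606 (18.6 CPM) in WT denervated, 1246 (41.9 CPM) in KO sham and 648 (21 CPM) in KO denervated muscle. Both denervated libraries lay far below both sham libraries, with no overlap of the counting intervals. In log2 terms the ratio was -1.44 (95% interval -1.59 to -1.30) in WT muscle and -1.0 (-1.14 to -0.86) in KO muscle. Over both genotypes it was -1.22, with an adjusted p of 3.9e-09 in edgeR's quasi-likelihood test, and lower in 2 of 2 genotypes. With total-count scaling it was -0.90, still with a small adjusted p (2.6e-05) but short of 2-fold.

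Pdgfra, the receptor by which FAPs are sorted, was far scarcer. It had 208 counts (8.94 CPM) in WT sham, 221 (6.78 CPM) in WT denervated, 289 (9.73 CPM) in KO sham and 243 (7.86 CPM) in KO denervated muscle. The denervated library was the lower in each genotype, but the intervals of WT sham and KO denervated overlapped, as did those of KO sham and KO denervated. Denervated over sham, the log2 ratio was -0.40 (-0.68 to -0.12) in WT muscle and -0.31 (-0.56 to -0.06) in KO muscle, where total-count scaling gave 0.05. Over both genotypes it was -0.35, with an adjusted p of 0.057 in edgeR's test. This lies at the threshold, since the adjusted p was 0.044 with DESeq2's size factors, 0.048 with the filter at 50 counts, 0.044 by limma and 0.28 in DESeq2's Wald test. With total-count scaling the ratio was -0.03.

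The study also measured Pdgfra by quantitative PCR on sorted cells, and its primers are shown because they say which part of the transcript stands for FAPs there. Both were found in 2 of the 9 Pdgfra transcripts of GENCODE M21, Pdgfra-201 and Pdgfra-202.
Pdgfra forward primer: tccatgctagactcagaagtca
Pdgfra reverse primer: tcccggtggacacaatttttc
On Pdgfra-201 the product covers bases 2478 to 2617, which is 140 bases of coding sequence from exon 16 to exon 18 of 23. In the genome it spans chr5:75183133-75185964 on the plus strand of GRCm38, an older assembly than the GRCm39 named in the submitters' processing notes. The counts described here cover the whole gene and cannot be split by transcript.

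The remaining surface markers were lower in denervated muscle of each genotype. Cd34, a sialomucin of progenitor and endothelial surfaces, had 1495 counts (64.2 CPM) in WT sham, 1252 (38.4 CPM) in WT denervated, 1817 (61.2 CPM) in KO sham and 1168 (37.8 CPM) in KO denervated muscle. The 2 sham libraries were close to each other and so were the 2 denervated libraries. The log2 ratio was -0.74 (-0.85 to -0.63) in WT muscle and -0.69 (-0.80 to -0.59) in KO muscle. Over both genotypes Cd34 fell by 0.72 on the log2 scale, with an adjusted p of 2.2e-07 in edgeR's test. Total-count scaling gave a log2 ratio of -0.40 (adjusted p = 0.00089, edgeR).

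Ly6a, the GPI-anchored antigen known as Sca-1 that is used to sort FAPs, had 894 counts (38.4 CPM) in WT sham, 927 (28.4 CPM) in WT denervated, 1293 (43.5 CPM) in KO sham and 799 (25.8 CPM) in KO denervated muscle. Both denervated libraries were below both sham libraries. Its log2 ratio was -0.43 (-0.57 to -0.30) in WT muscle and -0.75 (-0.88 to -0.62) in KO muscle, and over both genotypes -0.60 (adjusted p = 2.3e-05, edgeR). Total-count scaling took the value over both genotypes to -0.28 (adjusted p = 0.022, edgeR). Ly6a belongs to a family of closely related genes, and how reads shared with its relatives were counted is not given in the sources used here.

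Thy1, a GPI-anchored glycoprotein of fibroblasts, was measured on few reads, with 141 counts (6.06 CPM) in WT sham, 103 (3.16 CPM) in WT denervated, 129 (4.34 CPM) in KO sham and 67 (2.17 CPM) in KO denervated muscle. It was lower after denervation in each genotype and lower in KO than in WT in each surgery group. In log2 terms the ratio was -0.93 (-1.32 to -0.56) in WT muscle and -0.98 (-1.45 to -0.57) in KO muscle. Over both genotypes it was -0.97 with an adjusted p of 0.00068 in edgeR's test, just short of the 2-fold line. Total-count scaling gave -0.65 (adjusted p = 0.02, edgeR).

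The matrix products among the members were Dcn, Fn1, Lum and Postn. Dcn, which encodes the collagen-binding proteoglycan decorin, had 3191 counts (137 CPM) in WT sham, 4141 (127 CPM) in WT denervated, 5350 (180 CPM) in KO sham and 3819 (124 CPM) in KO denervated muscle. The KO sham library stood above the other 3 libraries, which were closer to each other. The log2 ratio was -0.11 (-0.18 to -0.04) in WT muscle, a direction that total-count scaling turned to 0.17, and -0.54 (-0.60 to -0.48) in KO muscle. Over both genotypes it was -0.33, with an adjusted p of 0.0028 in edgeR's test but 0.29 in DESeq2's Wald test, and total-count scaling gave -0.01 (adjusted p = 0.92).

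Fn1, which encodes fibronectin, had 1219 counts (52.4 CPM) in WT sham, 1405 (43.1 CPM) in WT denervated, 1265 (42.6 CPM) in KO sham and 939 (30.4 CPM) in KO denervated muscle. The WT sham library was highest and the KO denervated library lowest, with the other 2 alike. On the log2 scale the ratio was -0.28 (-0.39 to -0.17) in WT muscle and -0.49 (-0.61 to -0.36) in KO muscle, and over both genotypes -0.38 (adjusted p = 0.00089, edgeR). With total-count scaling that value was -0.06 (adjusted p = 0.52).

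Lum, which encodes lumican, a relative of decorin that also binds collagen fibrils, had 753 counts (32.4 CPM) in WT sham, 777 (23.8 CPM) in WT denervated, 698 (23.5 CPM) in KO sham and 809 (26.2 CPM) in KO denervated muscle. Only the WT sham library stood apart. Its log2 ratio was -0.44 (-0.59 to -0.30) in WT muscle and 0.15 (0.01 to 0.30) in KO muscle, and over both genotypes -0.14 with an adjusted p of 0.31 in edgeR's test. With total-count scaling the value over both genotypes was 0.17.

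Postn encodes periostin, a matricellular protein that activated fibroblasts secrete. It had 1232 counts (52.9 CPM) in WT sham, 685 (21 CPM) in WT denervated, 558 (18.8 CPM) in KO sham and 955 (30.9 CPM) in KO denervated muscle. In WT muscle the sham library was the higher, and in KO muscle the denervated library was. The log2 ratio was -1.33 (-1.47 to -1.20) in WT muscle and 0.72 (0.57 to 0.87) in KO muscle. The difference between these ratios was 2.05, with a counting interval of 1.84 to 2.25, and was not tested, since the model leaves no degree of freedom for it. Over both genotypes the ratio was -0.35, with an adjusted p of 0.26 in edgeR's test. The adjusted p was 0.00088 with DESeq2's size factors, a setting in which edgeR's error estimate differed. It was 0.069 by limma and 0.83 in DESeq2's Wald test. Total-count scaling gave a ratio of -0.03 over both genotypes (adjusted p = 0.94, edgeR) and 1.07 in KO muscle.

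Tcf7l2, a transcription factor of the Wnt pathway whose protein marks connective tissue fibroblasts of muscle, was the only member with a higher value after denervation in each genotype. It had 87 counts (3.74 CPM) in WT sham, 191 (5.86 CPM) in WT denervated, 163 (5.49 CPM) in KO sham and 191 (6.18 CPM) in KO denervated muscle. The WT sham library was low and the other 3 libraries had overlapping counting intervals. Denervated over sham, the log2 ratio was 0.64 (0.27 to 1.03) in WT muscle and 0.17 (-0.14 to 0.48) in KO muscle. Over both genotypes it was 0.38, with an adjusted p of 0.10 in edgeR's test, and with total-count scaling 0.70 (adjusted p = 0.0076).

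By fold alone, 2 of 10 members were past 2-fold in WT muscle (Pdgfrb and Postn, both lower), against 14.8% of all genes in either direction and 7.52% in the lower direction. In KO muscle, 0 of 10 were, against 13.6% of all genes, and Pdgfrb was just short of the line before rounding. Their median log2 ratio was -0.44 in WT muscle and -0.52 in KO muscle, beside 0.01 for all genes in each. Total-count scaling raised both members' medians to -0.16 and those of all genes to 0.29 and 0.36. Of the 10, 7 were lower in both genotypes, against 40.6% of all genes, and 1 was higher in both, against 42.3%.

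Apart from Postn, the genotypes differed by less than 2-fold in these genes. In sham muscle, 1 of 10 members was past 2-fold (Postn, log2 ratio -1.49, interval -1.64 to -1.35), against 2.04% of all genes. The next values were 0.55 for Tcf7l2, -0.47 for Thy1, -0.46 for Lum and 0.39 for Dcn. In denervated muscle, 0 of 10 were past 2-fold, against 1.56% of all genes, and the values farthest from 0 were 0.55 for Postn, -0.53 for Thy1 and -0.50 for Fn1. The members' median was -0.17 in sham and 0.03 in denervated muscle, beside 0.00 and -0.01 for all genes.

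Over both surgeries, edgeR's additive model called 0 members for genotype, against 0.168% of all genes, with 2 members at an unadjusted p below 0.05, both lower, against 7.76% in either direction and 4.46% lower, and DESeq2's Wald test and limma also called 0. At an adjusted p below 0.05 and any fold, 1 of 10 was lower in KO muscle, against 0.306% of all genes, and 0 were higher. This was Fn1, with a log2 ratio of -0.40 and an adjusted p of 0.033 by edgeR, lower in 2 of 2 surgery groups, which come from the same animals and are not independent. DESeq2's Wald test gave an adjusted p of 0.64 for it. With DESeq2's size factors Postn was lower too, at an adjusted p of 0.00053 by edgeR against 0.70, but edgeR's error estimate differed in that setting. Postn did not pass by limma (adjusted p = 0.19) or in DESeq2's Wald test. Unlike Fn1, it was lower in KO sham muscle (log2 ratio -1.49) and higher in KO denervated muscle (0.55).

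Levels of different genes were compared as CPM per kilobase of exon, with exon lengths from GENCODE M21. The length was that of all annotated exons of a gene merged, which for Pdgfra is 10024 bases where the transcript Pdgfra-201 has 6549. Counting intervals do not cover this choice of length, and the order with other lengths was not tested. In WT sham muscle the order from high to low was Ly6a (31.9), Dcn (23.5), Lum (13.2), Pdgfrb (9.23), Cd34 (8.81), Postn (6.08), Fn1 (4.48), Thy1 (2.02), Pdgfra (0.892) and Tcf7l2 (0.426), and among neighbours only Pdgfrb and Cd34 had overlapping counting intervals. In WT denervated muscle, Pdgfrb (3.39) was below Cd34 (5.27) and level with Fn1 (3.69) within their intervals, and Postn (2.41) was below Fn1. In both denervated libraries Ly6a and Dcn could not be separated by their intervals. Pdgfra and Tcf7l2 were among the 3 lowest members in all 4 libraries, beside Thy1, and these 3 also had the fewest reads behind them.

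The genes outside the members whose pattern over the 4 libraries came nearest to the members' median pattern were Dyrk1a, Arhgef18, Tmem201, Otud3 and Bcl2l2. Likeness was the Euclidean distance between log2 CPM values centred on each gene's mean, over 11306 genes averaging 50 or more counts, and these 5 were at distances of 0.035 to 0.046, where the median gene was at 0.63. The members' median pattern was 0.32 above the mean in WT sham and 0.24 above it in KO sham muscle, and at -0.22 in WT denervated and -0.27 in KO denervated muscle. The members themselves were less alike, at distances of 0.20 (Cd34) and 0.21 (Ly6a) up to 1.04 (Tcf7l2) and 1.11 (Postn).

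The lists that follow were compared on TMM-scaled values over both genotypes, beside the all-gene median of 0.01 and the shares of 6.15% lower and 6.76% higher given above. Counts at an adjusted p below 0.05 and any fold stand beside 26.8% of all genes lower and 26.5% higher in edgeR's test. The most abundant gene of a list is that with the highest mean CPM over the 4 libraries, not corrected for exon length, and it need not lead in each library or per kilobase. Total-count scaling raised each list's median by 0.31 or 0.32 and turned the sign of 2 of 20, the Wnt list (to 0.23) and the list with mast cell genes (to 0.14). Over all genes it took those called lower from 805 to 327 and those called higher from 884 to 1703. With DESeq2's size factors, 842 were called lower and 886 higher. The calls in each list are given for TMM scaling only, and lower calls near 2-fold need not hold with total-count scaling. Among the ligands of the PDGF receptors, of 5 genes (Pdgfa, Pdgfb, Pdgfc, Pdgfd and the receptor-like Pdgfrl), 1 was called lower and 0 higher, 3 were lower at an adjusted p below 0.05 at any fold, and the median log2 ratio was -0.68. Pdgfb, which endothelial cells make to recruit pericytes, had 748 counts in WT sham, 459 in WT denervated, 763 in KO sham and 419 in KO denervated muscle, and a log2 ratio of -1.06 (adjusted p = 6e-08, edgeR). Pdgfa, highest of the 5 in mean CPM but below Pdgfb in WT sham muscle, had 644, 514, 816 and 484 counts in the same order and a log2 ratio of -0.81.

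A wider list of fibroblast and FAP genes was also mostly lower. Of 26 measured, 7 were called lower and 0 higher, 15 were lower and 5 higher at an adjusted p below 0.05 at any fold, and the median log2 ratio was -0.47. Eng, which is also on the endothelial list below, was among the 7 and is counted in both lists. Ackr3, a scavenging receptor for the chemokine CXCL12, had 374 counts in WT sham, 158 in WT denervated, 440 in KO sham and 170 in KO denervated muscle (log2 ratio -1.58, adjusted p = 1.7e-08, edgeR). Igfbp6, an IGF-binding protein, had 360, 258, 544 and 161 counts in the same order (log2 ratio -1.37, adjusted p = 5.1e-07). Itgb1, an integrin chain that many cells make and highest in mean CPM, went the other way, with 5435, 11037, 7206 and 11094 counts (log2 ratio 0.55, adjusted p = 1e-06), while Gsn, the higher of the 2 in KO sham muscle, had 4945, 4910, 7401 and 4206 (log2 ratio -0.69, adjusted p = 4.9e-07). Clec3b, Fap, Pdpn, Lgi1 and S100a4 were on the list and were not analysed here.

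Among other small leucine-rich proteoglycans, the family of Dcn and Lum, 0 of 8 were called in either direction, 5 were lower at an adjusted p below 0.05 at any fold, and the median log2 ratio was -0.61. Bgn (biglycan), highest in mean CPM but below Fmod in KO sham muscle, had 1503 counts in WT sham, 1966 in WT denervated, 1680 in KO sham and 1832 in KO denervated muscle, and a log2 ratio of -0.02 that total-count scaling moved to 0.30. Its adjusted p was 0.88 in edgeR's test, and its values thus showed no detectable effect of denervation beside the lower values of most relatives.

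Matricellular genes, the family of Postn, went in both directions. Of 16, 3 were called higher and 2 lower, and 4 were higher and 7 lower at an adjusted p below 0.05 at any fold. The median log2 ratio was -0.46. Spp1 (osteopontin) had 82 counts in WT sham, 2283 in WT denervated, 70 in KO sham and 1355 in KO denervated muscle (log2 ratio 4.27, adjusted p = 1.9e-16, edgeR). Cilp, a matrix protein that binds TGFB1, had 502, 3392, 443 and 4835 counts (log2 ratio 2.83, adjusted p = 3.3e-12). The denervated libraries were many-fold above the sham libraries in both cases, in contrast to Postn. Sparcl1 had 5823, 3293, 6419 and 2931 counts (log2 ratio -1.25) and Tnxb had 879, 594, 1037 and 451 (log2 ratio -1.15).

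Genes of microfibrils and elastic fibres, to which fibronectin is linked in the matrix, gave 3 called lower and 1 higher of 15, with a median log2 ratio of -0.52. The latent TGFB binding proteins, which tether TGFB to the matrix, had no common direction. Ltbp4 had 2905 counts in WT sham, 1447 in WT denervated, 2890 in KO sham and 1369 in KO denervated muscle (log2 ratio -1.31, adjusted p = 7.3e-11, edgeR), while Ltbp3 had 1818, 5158, 1962 and 4543 (log2 ratio 1.09, adjusted p = 1.4e-10). Ltbp1 had 337, 714, 375 and 787 counts (log2 ratio 0.81, adjusted p = 7.6e-06) and Ltbp2 had 35, 47, 34 and 52 (log2 ratio 0.25, adjusted p = 0.53). Eln (elastin) had 464, 316, 495 and 251 counts and a log2 ratio of -1.04.

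Transcription factors of mesenchymal cells had no common direction. Of 10, 1 was called higher and 2 lower, and the median log2 ratio was 0.06. Hic1, a repressor found in quiescent mesenchymal progenitors, had 263 counts in WT sham, 165 in WT denervated, 246 in KO sham and 114 in KO denervated muscle (log2 ratio -1.16, adjusted p = 5.8e-06, edgeR). Twist1 (41, 16, 29 and 21 counts, log2 ratio -1.20) and Runx2 (28, 58, 12 and 73 counts, log2 ratio 1.44) rested on few reads. Prrx1, the most abundant of the list, had 1868, 3030, 2490 and 3165 counts and a log2 ratio of 0.25 (adjusted p = 0.007).

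Around Tcf7l2, 17 other genes of Wnt signalling gave 2 called higher and 4 lower, with a median log2 ratio of -0.08. Tcf7, a relative of Tcf7l2, had 12 counts in WT sham, 60 in WT denervated, 10 in KO sham and 38 in KO denervated muscle (log2 ratio 1.84, adjusted p = 0.00074, edgeR), while Tcf7l1, another relative, had 112, 76, 174 and 78 and was called lower (log2 ratio -1.14, adjusted p = 0.00015). Lgr5, a receptor that enhances Wnt signals, had 8, 45, 7 and 49 counts (log2 ratio 2.37, adjusted p = 0.00019). Among those called lower were Nkd1 (21, 9, 31 and 12 counts, log2 ratio -1.54) and Dkk3 (244, 84, 154 and 109 counts, log2 ratio -1.32), and the most abundant gene, Tle5, had 17101, 10228, 21656 and 9302 counts (log2 ratio -1.25). Lef1 was not analysed here.

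Genes of the fates open to FAPs are described next, in whole muscle, where the cells that made the RNA cannot be told apart. Of 10 adipocyte genes, 3 were called lower and 0 higher, 5 were lower and 2 higher at an adjusted p below 0.05 at any fold, and the median log2 ratio was -0.45. The 2 higher were the transcription factors Cebpa (70, 190, 79 and 157 counts, log2 ratio 0.94, adjusted p = 0.00074, edgeR) and Cebpb (591, 1209, 751 and 1096 counts, log2 ratio 0.52, adjusted p = 7.1e-05), while Cebpd of the same family was called lower (174, 136, 390 and 128 counts, log2 ratio -1.30, adjusted p = 7.1e-06). Lpl, the lipoprotein lipase that muscle fibres also make, had 14682 counts in WT sham, 9021 in WT denervated, 19563 in KO sham and 6729 in KO denervated muscle (log2 ratio -1.39), and Plin4, a lipid droplet protein of fibres and adipocytes, had 7309, 3902, 9828 and 4341 (log2 ratio -1.31). Adipoq, Plin1, Lep and Retn, which define mature adipocytes, were not analysed here. Of 7 contractile genes of myofibroblasts and smooth muscle, 5 were called lower and 0 higher, with a median log2 ratio of -1.24. Lmod1 had 153, 72, 218 and 29 counts (log2 ratio -2.15) and Myl9 had 911, 475, 910 and 351 (log2 ratio -1.43), while the most abundant, Tpm2, is also a gene of muscle fibres (239828, 278304, 361382 and 257917 counts, log2 ratio -0.41).

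Markers of the vessel wall, which share Pdgfrb, Cd34 and Ly6a, were mostly lower too, and by more. Of 10 pericyte and smooth muscle genes, 6 were called lower and 0 higher, with a median log2 ratio of -1.22. Vtn had 593 counts in WT sham, 237 in WT denervated, 767 in KO sham and 254 in KO denervated muscle (log2 ratio -1.73, adjusted p = 1.8e-10, edgeR) and Ndufa4l2 had 203, 110, 267 and 75 (log2 ratio -1.62, adjusted p = 5.5e-07). The list's summed level was 4940 CPM in WT sham, 6570 in WT denervated, 4940 in KO sham and 5980 in KO denervated muscle, which follows its most abundant gene, Des, a gene of muscle fibres too (log2 ratio 0.55).

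Of 18 endothelial genes, 9 were called lower and 0 higher, all 18 were lower at an adjusted p below 0.05 at any fold, and the median log2 ratio was -1.0. The summed level was 1100 CPM in WT sham, 512 in WT denervated, 895 in KO sham and 481 in KO denervated muscle. Flt1, a VEGF receptor, had 2778, 1426, 2940 and 1536 counts (log2 ratio -1.22, adjusted p = 6e-10, edgeR), and Cdh5, the endothelial cadherin and most abundant gene, had 3696, 2169, 3613 and 1803 (log2 ratio -1.16, adjusted p = 8e-11). The 10 members had summed levels of 447, 316, 431 and 312 CPM in the same libraries. The part of pericyte and endothelial RNA in the lower Pdgfrb, Cd34, Ly6a and Thy1 was not tested.

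**Figure D2:**
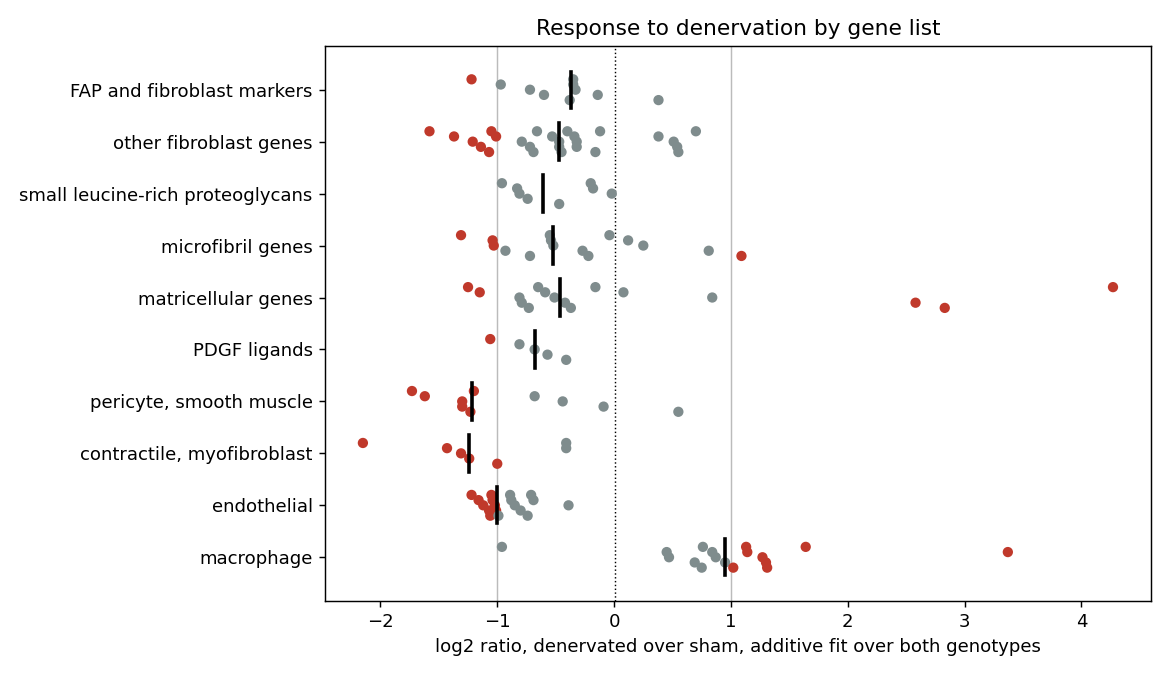
Log2 ratio of denervated over sham muscle (additive fit over both genotypes, x axis) for each gene of 10 lists, with genes called at an adjusted p below 0.05 and at least 2-fold in red and others in grey; black bars are list medians, grey lines mark 2-fold and the dotted line is the median of all genes (0.01). The markers' median is -0.37, between that of all genes and those of the endothelial (-1.0) and pericyte (-1.22) lists, and most macrophage genes lie to the right (median 0.95).

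Most macrophage genes went the other way. Of 17, 8 were called higher and 0 lower, 12 were higher and 1 lower at an adjusted p below 0.05 at any fold (Lyve1, 18, 21, 61 and 25 counts, log2 ratio -0.96, adjusted p = 0.037, edgeR), with a median log2 ratio of 0.95 and summed levels of 40.7 CPM in WT sham, 89.8 in WT denervated, 44.7 in KO sham and 88.9 in KO denervated muscle. Cd68 had 23, 350, 32 and 333 counts (log2 ratio 3.37, adjusted p = 1.1e-10, edgeR), Ccr2 had 39, 178, 45 and 140 (log2 ratio 1.64, adjusted p = 8.9e-06), and the most abundant, Lyz2, had 275, 735, 370 and 753 (log2 ratio 0.95). Macrophages make Fn1 and Spp1 as well, and the part of macrophage RNA in those values was not tested.

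Schwann cell genes gave 2 called lower and 0 higher of 8, with a median log2 ratio of -0.55 and summed levels of 88.0, 45.3, 87.0 and 47.1 CPM in the same order of libraries. The myelin genes Prx (223, 30, 198 and 29 counts, log2 ratio -3.12) and Pmp22 (728, 231, 1028 and 208 counts, log2 ratio -2.25), the latter highest in mean CPM though below Mbp and Erbb3 in both denervated libraries, were the 2 called. Of 2 tenocyte genes (median log2 ratio -1.10, summed levels 59.6, 30.1, 67.3 and 35 CPM), 1 was called lower (Mkx, 20, 7, 24 and 15 counts, log2 ratio -1.23), and Fmod, the more abundant and itself a small leucine-rich proteoglycan, had 1368, 976, 1975 and 1066 counts (log2 ratio -0.96). Of the list of lymphocyte, mast cell and granulocyte genes, only 2 were measured, neither of them a lymphocyte gene (median -0.18, summed levels 6.23, 2.85, 4.11 and 2.20 CPM). Kit was called lower (136, 63, 113 and 51 counts, log2 ratio -1.42), S100a9 had 9, 30, 9 and 17 counts (log2 ratio 1.07, adjusted p = 0.071, edgeR), and Cd3e, Cd4 and Cd8a were not analysed here. Of the 5 red cell genes, 0 were called, and all 5 were lower at an adjusted p below 0.05 at any fold. They had a median log2 ratio of -0.72 and summed levels of 288, 208, 333 and 170 CPM. Their most abundant, Hbb-bs, had 2067, 2108, 3165 and 1740 counts and a log2 ratio of -0.69 (adjusted p = 2e-06, edgeR). The part of blood, nerve or tendon RNA in the members' values was not tested.

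Of 4 satellite cell genes (median log2 ratio 0.75, summed levels 148, 268, 129 and 254 CPM), 2 were called higher, Ncam1 (log2 ratio 3.55) and Sdc4 (399, 1794, 518 and 1519 counts, log2 ratio 1.59), both of which fibres can also make. Itga7, highest in mean CPM but not in KO denervated muscle, had 2708, 3503, 2923 and 2892 counts (log2 ratio -0.09, turned to 0.22 by total-count scaling), and Pax7 was not analysed here. Of 4 fibre genes (median log2 ratio -0.66), 1 was called higher (Tnnt1 of slow fibres, 146, 1483, 168 and 1369 counts, log2 ratio 2.91) and 0 lower. At an adjusted p below 0.05 and any fold, 3 of the 4 were lower. The most abundant, Myh1, had 564591, 510937, 641610 and 542326 counts (log2 ratio -0.47). The summed level of the 4 was 41800, 25500, 40600 and 27800 CPM, so genes of the labelled tissue were abundant in all 4 libraries.

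Of 12 neurotrophic, cytokine and TGFB family genes, receptors and signalling genes included, 1 was called higher and 0 lower, with a median log2 ratio of 0.10. The gene called was Tgfb1, with 191 counts in WT sham, 1014 in WT denervated, 190 in KO sham and 821 in KO denervated muscle (log2 ratio 1.99, adjusted p = 1.9e-11, edgeR), with 1.91 in WT muscle and 2.04 in KO muscle, a difference of 0.13 (counting interval -0.19 to 0.45). Bulk RNA does not say which cells made it. The most abundant of the list was Il6st, the shared receptor chain of IL-6 family cytokines, with 5086, 7811, 5981 and 8055 counts (log2 ratio 0.25).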

How the data were processed

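TA muscle RNA (TruSeq Stranded mRNA) from 4 groups was sequenced as 1 pooled library per group. The authors deposited 2 tables, raw read counts by gene and log2 values under the name of FPKM. From the values, the deposited log2 table was found to be log2(count × library factor + 1) to within 5.2e-07, and so to hold no correction for gene length. The submitters' processing notes name GRCm39 and FastQC, and the aligner and counter are not given in the sources used here. The table's smallest count was 1.

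Counts were analysed with R 4.3.3, edgeR 4.0.16, limma 3.58.1 and DESeq2 1.42.0, and with Python 3.11.15 and scipy 1.17.1. TMM factors were computed on all 13825 genes of the count table (0.922 in WT sham, 1.119 in WT denervated, 0.87 in KO sham and 1.115 in KO denervated muscle). Genes averaging 10 or more counts were then kept, with library totals unchanged, and log2 CPM used a prior count of 2. The fit over all 4 libraries was edgeR's quasi-likelihood test. Its common biological coefficient of variation was 0.0682, and its 1 residual degree of freedom is the interaction, which was therefore not tested. Lists were described by counts and medians. A level of 3 counts corresponds to 0.129 CPM in WT sham, 0.092 in WT denervated, 0.101 in KO sham and 0.097 in KO denervated muscle. Intervals and this floor cover counting error only. The scripts were tested on simulated data. Exon lengths and transcripts came from GENCODE M21 (GRCm38), matched by name for 202 of 203 list genes, and older symbols from RefSeq names of GRCm38.p6.

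The members and the 19 other lists were chosen with earlier results of these data known. Named are all members, the 2 highest and 2 lowest called genes of each list, the most abundant gene of lists of cell types or without calls, list genes at 3 counts or fewer in every library (there were none), and the 5 genes nearest to the members' pattern. Some list genes are not reported here. Any other gene with values was chosen after its values were seen, among them Pdgfa, Itgb1, Prrx1, Tle5, Il6st, Pi16, Serping1, Omd, Tle3, Tle4, Ltbp1, Ltbp2, Cebpa, Cebpb, Cebpd, Gsn, Tcf7l1, Lyve1 and S100a9. As alternatives, scaling used DESeq2's size factors, totals alone or TMM without mitochondrially encoded genes, the filter was dropped or raised to 50, the prior count was 0.125 or 5, and the rest were the second table (with limma for the additive fit), DESeq2's Wald test, no fold threshold and edgeR's legacy quasi-likelihood.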

Additional observations from a re-analysis of the deposited data

Results flagged for a closer look

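In 2 members and 5 other list genes, denervation went with opposite directions in the 2 genotypes, with counting intervals that left out 0 in each. This holds for 2 of 10 members, 2.59% of 193 other list genes and 1.18% of all 13084 genes, among which depth differs. None of these differences was tested, since each group is 1 library. Postn had log2 ratios of -1.33 in WT muscle and 0.72 in KO muscle, a difference (KO minus WT) of 2.05. Lum had -0.44 and 0.15, a difference of 0.60. Further list genes had opposite signs with an interval that included 0 and so did not meet this rule. Omd (osteomodulin, a relative of Dcn and Lum) had 43 counts in WT sham, 19 in WT denervated, 26 in KO sham and 53 in KO denervated muscle, and log2 ratios of -1.56 and 0.92, a difference of 2.47. Its direction was thus that of Postn.

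Pi16, a marker of a fibroblast population around vessels, had 149 counts in WT sham, 345 in WT denervated, 305 in KO sham and 152 in KO denervated muscle, with log2 ratios of 0.72 and -1.05, a difference of -1.77. Serping1, the inhibitor of complement C1, had 677, 1121, 1192 and 898 counts, with 0.24 and -0.47, a difference of -0.71. Both were higher after denervation in WT muscle and lower in KO muscle, opposite to Postn. Of the Groucho-type corepressors, Tle3 had 250, 223, 189 and 277 counts and a difference of 1.14, and Tle4 had 438, 845, 772 and 672 counts and a difference of -0.72. With total-count scaling, Tle4 in KO muscle was 0.10 instead of -0.26, so its directions were then no longer opposite.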

How the results depend on the processing

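No paired analysis was possible because the pools leave no single animals to pair, though the additive fit already compares both legs within each genotype. Leaving a library out leaves no residual degree of freedom.

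With total-count scaling, genes called for denervation were 2030, of which 83.9% were higher, against 1689 and 52.3%. The members' medians were -0.16 in WT muscle and -0.16 in KO muscle, where 1 member was past 2-fold (Postn, higher at 1.07). Members called for denervation were 0 and those higher at any fold 1 (Tcf7l2), with Lum at 0.17 for denervation, Ly6a at -0.02 for genotype, Dcn in WT muscle at 0.17 and Pdgfra in KO muscle at 0.05, all turned in sign. By construction it moves all genes together. With DESeq2's size factors 1 member was past 2-fold in KO muscle (Pdgfrb, lower at -1.01), and 2 were lower for genotype at any fold. In that setting edgeR's prior degrees of freedom went from 18.7 to infinite, so that its p values there rest on a different error estimate. The smaller prior count put 2 members past 2-fold in KO muscle. On the second table, genes past 2-fold were 1188 in WT muscle, 1117 in KO muscle, 29 in sham muscle and 25 in denervated muscle, and limma called 1080 genes for denervation. At a mean count of at least 50, they were 68 in sham muscle and 47 in denervated muscle, with fewer genes tested. DESeq2's Wald test called 13 genes for genotype against 22, with 0 members lower at any fold. Without a fold threshold, 6964 genes and 6 members were called for denervation and 75 genes and 1 member for genotype, by construction. For the other changes the cause was not tested.

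Over all alternatives, 4 values of single members turned in sign, and of the additive values 6 gained an adjusted p below 0.05 at any fold and 4 lost it. Pdgfra, Thy1 and Tcf7l2, at means of 240.0, 110.0 and 158.0 counts, are those most limited by depth.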

Other observations

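Among the genes of the wider fibroblast list that were higher at an adjusted p below 0.05 in edgeR's test, all short of 2-fold, were Cd55, Itgb1, C3 and Mgp, chosen after their values were seen. Cd55, an inhibitor of complement on cell surfaces, had 1925 counts in WT sham, 3947 in WT denervated, 2301 in KO sham and 4289 in KO denervated muscle (log2 ratio 0.70, adjusted p = 2.8e-07). It was higher in each genotype after denervation.

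C3, the central complement component, had 237, 768, 473 and 449 counts in the same order, with log2 ratios of 1.20 in WT muscle and -0.13 in KO muscle, where the counting interval of -0.32 to 0.06 includes 0 and total-count scaling gave 0.22. Mgp, an inhibitor of matrix calcification, had 913, 1306, 761 and 1325 counts, with log2 ratios of 0.03 and 0.74. The difference between genotypes was not tested for either gene.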
